A study of Arabidopsis thaliana with 2 samples.

Results

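Moderately NPA-raised, well-measured transcripts are described here: the nuclear genes of Arabidopsis thaliana shoots whose signal was at least 56 on the DMSO array and whose NPA over DMSO signal ratio lay from 2 up to, but not including, 4. Where a gene had several probe sets of its own, the one with the highest mean signal over both arrays was used, and probe sets assigned to more than 1 gene were not. The rule gave 128 genes, of 5056 nuclear genes with a DMSO signal of 56 or more and 13270 nuclear genes read in all. They are 2.53% of the 5056. The NPA signal and the DMSO signal both chose them, so their ratios are a description with no test, and nothing is read from that share.

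One sample came from Col-0 plants grown on agar medium with N-(1-naphthyl)phthalamic acid (NPA) in DMSO. The other came from Col-0 plants grown on the same medium with an equal volume of DMSO. Both samples were total RNA of shoots taken at about 2 weeks, with about 6 rosette leaves, developmental stage 1.04, after stratification of at least 2 days and growth at about 20 C with 16 h of light. The treated sample's note gives the NPA concentration as 10 uM and the protocol shared by both samples gives 10 mM, so the dose is not settled. Each group was 1 Affymetrix ATH1 array, so no difference below has a replicate check and no p-value is given, and precision is limited by having 1 array a group. The labels do not say how many plants were pooled.

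NPA blocks the export of auxin from cells, and with it the directed flow of auxin from young leaves down the plant. Auxin made in leaf margins is normally drained through narrow files of cells that become veins, and leaves that cannot drain it form broad vascular zones along their edges. Auxin acts on transcription through AUX/IAA repressors and ARF factors, and cells limit its level by joining it to amino acids. The comparison asks which shoot transcripts differ when this drainage is blocked, and the study's title speaks of vascular overgrowth.

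On the whole arrays the median signal was 44.5 with NPA and 43.3 with DMSO, and the 40th percentile was 27.9 with NPA and 28.3 with DMSO. The minimum of 56 is 1.98 times that percentile on the DMSO array. In bulk RNA, fewer cells of a type and less RNA per cell cannot be told apart. Of 30 shoot markers, 6 were named on the array, and all 6 were above the 40th percentile in both arrays, with summed signals of 18650 with NPA and 23382 with DMSO. Of 20 root markers, 4 were named and 2 were above it in each array, with sums of 472 with NPA and 667 with DMSO, most of it from PYK10 at 425 with NPA and 609 with DMSO. None of the 11 flower and 15 seed markers was named here.

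The signal of a member ranged from 120 to 2160 with NPA, with a median of 256, and from 56.3 to 773 with DMSO, with a median of 107. Their median ratio was 2.32, a median log2 ratio of 1.22, against -0.05 over all 5056 genes, whose log2 ratios had an SD of 0.55. Most members lay near the lower bound: 51 had a ratio under 2.25, 34 lay from 2.25 up to 2.5, 27 from 2.5 up to 3, 12 from 3 up to 3.5 and 4 above that. A further 17 of the 5056 genes had a ratio of 4 or more and are not members. In the opposite window, above 0.25 and up to 0.5, there were 151 genes, 2.99% of the 5056. With the minimum of 56 set on the mean of both arrays, an alternative added after seeing the data, the windows held 194 genes on the higher side, 3.78% of 5129, and 125 on the lower side, 2.44%, so which side held more genes turned on the array that set the minimum.

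**Figure D1:**
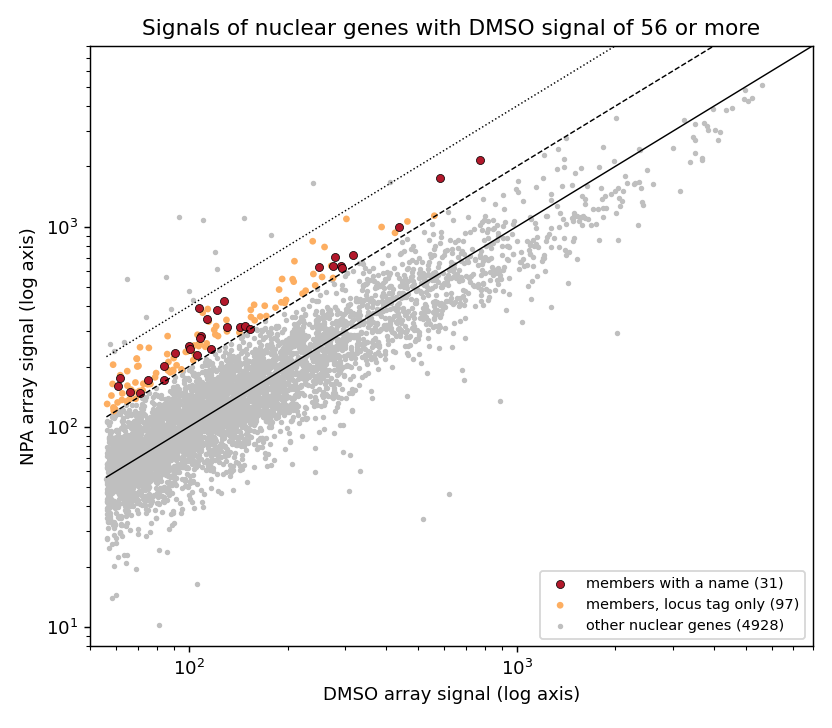
Signal on the NPA array (vertical, log axis) against signal on the DMSO array (horizontal, log axis) for 5056 nuclear genes with a DMSO signal of 56 or more, 1 point per gene. The solid line marks equal signals, the dashed line a ratio of 2 and the dotted line a ratio of 4. The 31 members with a gene name and the 97 with a locus tag only lie between the dashed and dotted lines, most of them near the dashed one.

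At the lower ratio bound, the 3 members nearest to it were GTR2 (307 with NPA, 154 with DMSO), AT2G21560 (138 with NPA, 68.8 with DMSO) and AT5G05960 (554 with NPA, 275 with DMSO). Just outside it were UGT72E1, a glycosyltransferase gene (129 with NPA, 64.4 with DMSO), AT2G41410 (657 with NPA, 330 with DMSO) and AT4G09760 (338 with NPA, 170 with DMSO). GTR2, at a ratio of 2.001, and UGT72E1, at 1.999, thus fall on opposite sides of the bound. At the upper bound, TBL36, AT1G48750 and AT1G21440, at ratios of 3.66, 3.61 and 3.54, were the members nearest to 4. CCL (1665 with NPA, 412 with DMSO), AT1G53070 (239.7 with NPA, 59.0 with DMSO) and AT4G14270 (429 with NPA, 103 with DMSO) lay just above it. At the signal bound, the members AT2G34810, AT3G07540 and AT3G47510 had 130.01, 143 and 164 with NPA, against 56.3, 58.0 and 58.5 with DMSO. Left out were AT4G19430, SIS and AT1G21670, with 139, 126 and 122 with NPA, against 55.5, 55.3 and 55.3 with DMSO.

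Members were more frequent among genes of lower DMSO signal. The 5056 genes were split by DMSO signal into 4 equal groups of 1264. Members made up 3.16% of the lowest group (DMSO signal up to 81.8), 3.24% of the next, 1.9% of the third and 1.82% of the highest (221 to 5597). Genes in the opposite ratio window ran the other way, at 2.22%, 2.06%, 3.01% and 4.67% in the same order. The median log2 ratio was -0.03 in the lowest and -0.19 in the highest group. The DMSO signal both sets these groups and divides the ratio, so the opposed trends are not free of how the groups were cut. Whether signal level has a part in which genes are members was not tested.

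**Figure D2:**
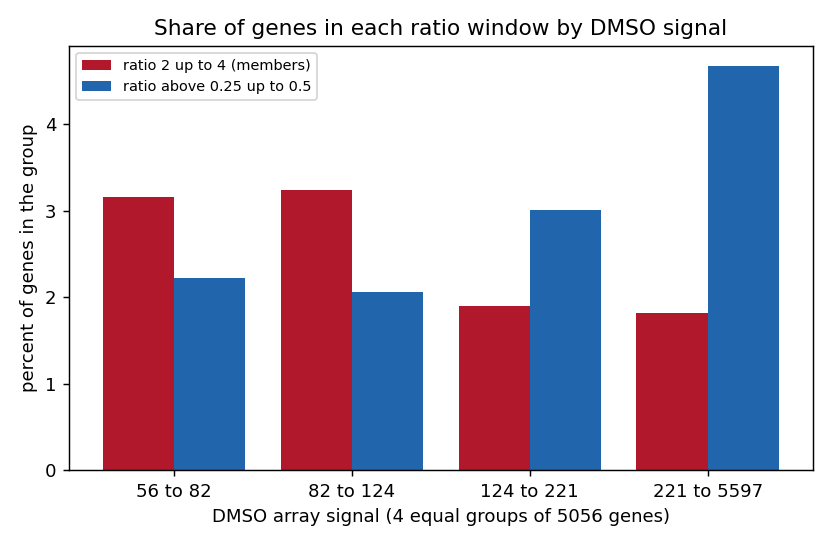
Percent of genes (vertical) with a ratio of NPA over DMSO from 2 up to 4, and with a ratio above 0.25 up to 0.5, in 4 groups of 1264 genes ordered by DMSO signal (horizontal). The first share is 3.16% in the lowest group and 1.82% in the highest, and the second is 2.22% in the lowest group and 4.67% in the highest.

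Of the 128 members, 31 have a gene name in the tables used here and 97 have only a locus tag, so what those 97 encode is not stated. Among the 5056 genes, 800 have a name, and 3.88% of these were members, against 2.28% of the 4256 genes with a locus tag only. The median ratio was 2.42 over the named members and 2.31 over the others. The 31 named genes fall into 8 groups by what they encode: cell wall and apoplast (7), transporters (5), protein breakdown (4), amino acid and methionine metabolism (4), other oxidoreductases (3), cytoskeleton (3), hormone and dehydration response (3), and a peptide signal and a membrane protein (2). These groups and the families below were drawn up after the values were seen. The groups were not counted over the 5056 genes, so their sizes do not show which functions recur among the members. A family here holds only the genes that the tables give a family name, so its counts are not those of the whole family. Relatives left out by their DMSO signal are given where their NPA signal was 56 or more. That choice fixes their ratio above 1, so their direction is no support for a family. Relatives under 56 on both arrays are mostly not given, and they went both ways. Families with more than 1 member were the NPF transporters (3), the LIM proteins (2), the TBL proteins (2) and the aldehyde dehydrogenases (2). With each array's 40th percentile signal added to both signals, 22 of the 31 kept a ratio of 2 or more, as did 75 of all 128. Signals of different probe sets do not compare transcript amounts between genes.

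**Figure D3:**
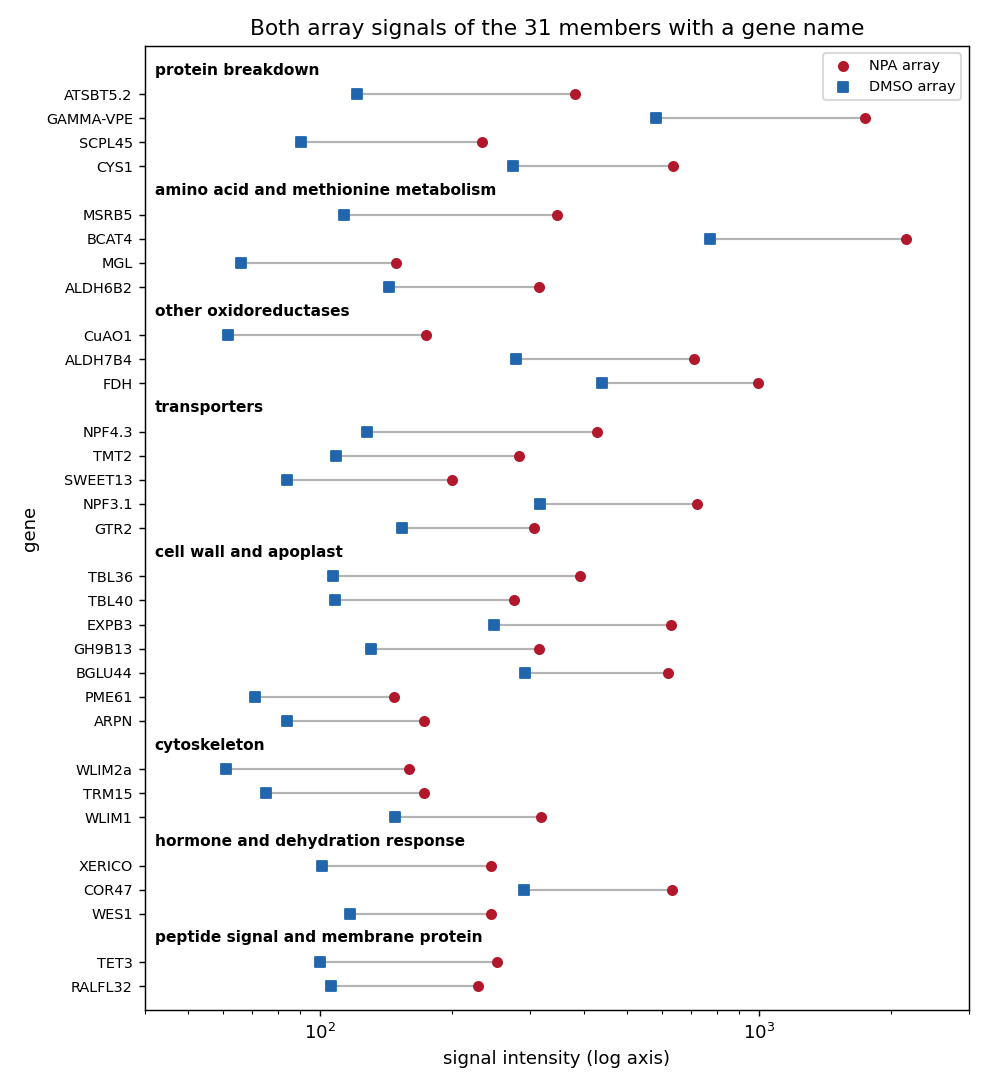
Signal intensity (horizontal, log axis) of the 31 members with a gene name, grouped by what they encode, with a circle for the NPA array and a square for the DMSO array. BCAT4, at 2160 with NPA and 773 with DMSO, and GAMMA-VPE, at 1745 with NPA and 582 with DMSO, carry the highest signals, and TBL36 has the longest line.

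Among the named members, protein breakdown was represented by 3 genes of protease families and 1 protease inhibitor gene. GAMMA-VPE, a vacuolar processing enzyme that cleaves and matures proteins in the vacuole of leaf cells, had a signal of 1745 with NPA and 582 with DMSO, a ratio of 3.00. ATSBT5.2, a subtilisin-like serine protease of the secretory pathway, had 381 with NPA and 122 with DMSO, a ratio of 3.13. SCPL45, a member of the serine carboxypeptidase-like family, had 234 with NPA and 90.6 with DMSO. CYS1, a cystatin that inhibits papain-like cysteine proteases, was also higher, with 637 with NPA and 276 with DMSO, a ratio of 2.31. Both the genes of protease families and the inhibitor gene are higher on the NPA array by the rule that chose them.

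Close relatives of these genes did not share one direction. SCPL45 was the only one of 13 serine carboxypeptidase-like genes with a DMSO signal of 56 or more that reached a ratio of 2. Of the 13, 8 were above and 5 below a ratio of 1, and those other than SCPL45 ran from SCPL49 (366 with NPA, 195 with DMSO) down to scpl42 (113 with NPA, 169 with DMSO). Across all 5056 genes, 45.2% had a ratio above 1 and 2.87% a ratio of 2 or more. Among the subtilases, SBT1.3 had 393 with NPA and 435 with DMSO, and SBTI1.1 and SBT3.5, left out by their DMSO signals, had 73.5 and 65.2 with NPA, against 32.6 and 35.8 with DMSO. BETA-VPE, the vacuolar processing enzyme known from seeds, was left out by its DMSO signal, with 201 with NPA and 43.5 with DMSO, and the other 2 vacuolar processing enzyme genes were below the 40th percentile on both arrays.

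In amino acid metabolism, the named members act on methionine, on methionine residues in proteins or in valine breakdown. BCAT4, an aminotransferase that starts the lengthening of methionine side chains for aliphatic glucosinolates, had 2160 with NPA and 773 with DMSO, a ratio of 2.79. MGL, methionine gamma-lyase, which breaks methionine down to a volatile thiol and a keto acid, had 149 with NPA and 65.9 with DMSO. MSRB5, which reduces oxidised methionine residues in proteins, had 347 with NPA and 113 with DMSO. ALDH6B2, a mitochondrial aldehyde dehydrogenase of valine breakdown, had 315 with NPA and 143 with DMSO. Of the 4, BCAT4 had the highest signal on both arrays.

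Glucosinolates, the sulfur-rich defence compounds of the cabbage family, link BCAT4 with the member GTR2, which loads them into cells along the veins. Of 5 named glucosinolate genes with a DMSO signal of 56 or more, these were the 2 at a ratio of 2 or more. GTR2, at 2.001, lay at the bound and came under it after each of the 3 other scalings. UGT74B1, which adds glucose to the glucosinolate precursor, had 424 with NPA and 247 with DMSO, and GTR1, the close relative of GTR2, had 267 with NPA and 220 with DMSO. AOP1, of the family that modifies side chains, was lower, with 75.4 with NPA and 115 with DMSO. The median log2 ratio of the 3 that are not members was 0.28.

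For the breakdown of branched-chain amino acids, ALDH6B2 was the only one of 6 named genes at a ratio of 2. The other 5 were all above 1, beside 45.2% of the 5056 genes. ETFALPHA, ETFBETA and D2HGDH were at 1.5 or more, a level reached by 9.65%, and MCCA and MCCB were under it. This list was drawn up after the values were seen, so nothing is read from these shares. The electron transfer flavoprotein subunits ETFALPHA and ETFBETA, which take electrons from this pathway, had 95.6 and 141 with NPA, against 60.8 and 90.0 with DMSO. D2HGDH, which feeds electrons to the same carrier, had 101 with NPA and 63.4 with DMSO. MCCA and MCCB, subunits of the leucine pathway's carboxylase, had 88.1 and 212 with NPA, against 59.0 and 153 with DMSO. ETFQO and IVD, also of this pathway, were left out by their DMSO signal, with 84.3 and 85.6 with NPA, against 51.1 and 54.7 with DMSO. The median log2 ratio of the 5 genes that are not members was 0.65, against -0.05 over the 5056. Nothing is read from this either, for the same reason.

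The methionine sulfoxide reductase B genes did not share one direction. Next to MSRB5 at a ratio of 3.06, MSRB3 had 81.7 with NPA and 81.9 with DMSO, and MSRB6 had 34.5 with NPA and 519 with DMSO. The other named branched-chain aminotransferase, ATBCAT-5, had 180 with NPA and 154 with DMSO.

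Other oxidoreductases among the named members handle small and reactive molecules. ALDH7B4, an aldehyde dehydrogenase known for its induction by dehydration and salt, had 709 with NPA and 280 with DMSO, a ratio of 2.54. FDH, the mitochondrial formate dehydrogenase, had 992 with NPA and 439 with DMSO. CuAO1, a copper amine oxidase that oxidises polyamines and releases hydrogen peroxide, had 174 with NPA and 61.7 with DMSO, a ratio of 2.83.

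Of 7 named aldehyde dehydrogenase genes with a DMSO signal of 56 or more, 2 were members. Of the other 5, 2 had a ratio of 1.5 or more and 4 were above 1. ALDH10A9 just missed the bound with 303 with NPA and 153 with DMSO, a ratio of 1.98, and its sister ALDH10A8, also of the betaine aldehyde dehydrogenase type, had 718 with NPA and 406 with DMSO. ALDH3F1 was the one below 1, with 393 with NPA and 450 with DMSO. ALDH11A3 had 1449 with NPA and 1276 with DMSO, and ALDH2C4 had 441 with NPA and 416 with DMSO. The median log2 ratio of the 5 was 0.18. ALDH22A1 was left out by its DMSO signal, with 76.9 with NPA and 48.3 with DMSO.

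All 5 named transporter genes encode carriers of sugars, glucosinolates or other NPF substrates. Members with only a locus tag are not counted. TMT2, which moves monosaccharides into the vacuole, had 284 with NPA and 109 with DMSO, a ratio of 2.61. SWEET13, a sucrose exporter that helps to load the phloem, had 200 with NPA and 83.8 with DMSO, a ratio of 2.39. One of these proteins thus stores sugar inside the cell and the other releases it. Their families differed: TMT1 had 107 with NPA and 97.2 with DMSO, whereas of 6 SWEET genes with a DMSO signal of 56 or more SWEET13 was the only one above a ratio of 1. SWEET2 and SWEET16 were lower, with 72.6 and 28.6 with NPA, against 311 and 62.6 with DMSO. SAG29, which the tables also name as a SWEET gene, was left out by its DMSO signal, with 497 with NPA and 37.9 with DMSO, a ratio of 13.1, as was SWEET4, with 69.6 with NPA and 29.3 with DMSO.

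Among families, the NPF transporters held the most named members. The family is named for nitrate and peptide transport, and its proteins also carry hormones and glucosinolates. NPF4.3 had 426 with NPA and 128 with DMSO, a ratio of 3.33. NPF3.1, reported to carry gibberellins, had 723 with NPA and 317 with DMSO, a ratio of 2.28. GTR2, also named NPF2.11, was at the bound itself with 307 with NPA and 154 with DMSO, and came under a ratio of 2 after each of the 3 other scalings tried. Beside these 3, the tables give an NPF name to 3 other genes with a DMSO signal of 56 or more, and any with only a locus tag are not counted. NPF6.2 had 776 with NPA and 636 with DMSO, and NPF6.4 was lower, with 796 with NPA and 1274 with DMSO. The remaining 5 named NPF genes had lower signals, up to 27.0 with NPA and 39.1 with DMSO.

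Cell wall and apoplast genes were the most numerous named group. TBL36, the named member with the largest ratio, had 391 with NPA and 107 with DMSO, a ratio of 3.66. TBL40 had 276 with NPA and 108 with DMSO on its brighter probe set, and 133 with NPA and 65.7 with DMSO on its other one, ratios of 2.55 and 2.03. Both belong to the trichome birefringence-like family, which includes enzymes that acetylate wall polysaccharides. The family as a whole went both ways: of 11 genes with a DMSO signal of 56 or more, 4 were above and 7 below a ratio of 1, and TBL45 had 102 with NPA and 296 with DMSO. TBL38 and TBL39 were left out by their DMSO signals, with 143 and 63.1 with NPA, against 54.6 and 39.3 with DMSO.

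Several wall members loosen or cut wall polymers. EXPB3, a beta-expansin, which loosens walls without cutting them, had 630 with NPA and 249 with DMSO, a ratio of 2.53. GH9B13, of the family of endoglucanases that cut beta-glucans, had 315 with NPA and 130 with DMSO, a ratio of 2.42. PME61, a pectin methylesterase, had 147 with NPA and 71.1 with DMSO, a ratio of 2.07. Pectin methylesterases strip methyl groups from pectin, which changes how stiffly it gels. PMEPCRF, the other such gene with a DMSO signal of 56 or more, had 586 with NPA and 304 with DMSO, a ratio of 1.93.

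The other named wall members were BGLU44 and ARPN. BGLU44, of the beta-glucosidase family, had 621 with NPA and 293 with DMSO, a ratio of 2.12, and ARPN, the small secreted copper protein plantacyanin, had 172 with NPA and 84.1 with DMSO, a ratio of 2.05 that came under 2 after each of the 3 other scalings. Relatives of BGLU44, GH9B13 and EXPB3 with a DMSO signal of 56 or more stayed closer to equal signals. So did most of the 5056 genes, of which 2.87% had a ratio of 2 or more and 3.24% of 0.5 or less. No relatives of ARPN were listed. Of 8 beta-glucosidase genes with a DMSO signal of 56 or more, 4 were above and 4 below a ratio of 1, among them BGLU33 with 317 with NPA and 187 with DMSO and BGLU47 with 40.04 with NPA and 67.5 with DMSO. Of 4 GH9 genes, GH9C2 had 546 with NPA and 396 with DMSO and GH9B7 549 with NPA and 554 with DMSO. The beta-expansin EXPB1 had 118 with NPA and 99.2 with DMSO.

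Named cytoskeletal members bind actin or organise microtubules. WLIM1 and WLIM2a belong to the LIM proteins, which bundle actin filaments. WLIM1 had 319 with NPA and 148 with DMSO, a ratio of 2.15, and WLIM2a had 159 with NPA and 60.9 with DMSO, a ratio of 2.61. WLIM2b, the third of this family with a DMSO signal of 56 or more, had 826 with NPA and 582 with DMSO, a ratio of 1.42. TRM15, of a family whose members recruit the TON1 protein to microtubules, had 172 with NPA and 75.2 with DMSO. Its relatives TRM19, TRM20 and TRM21 had 98.6, 159 and 129 with NPA, against 103, 220 and 126 with DMSO. TRM25 was left out by its DMSO signal, with 60.8 with NPA and 38.9 with DMSO.

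Named hormone and dehydration members numbered 3. WES1, also named GH3.5, joins auxin to amino acids, and had 245 with NPA and 117 with DMSO, a ratio of 2.09. It was the only one of 5 named GH3 genes with a DMSO signal of 56 or more. GH3.3 was left out by its DMSO signal, with 98.9 with NPA and 29.5 with DMSO, and GH3.17 had 40.4 with NPA and 42.8 with DMSO. XERICO, a RING-type protein whose overexpression raises abscisic acid, had 245 with NPA and 101 with DMSO, a ratio of 2.42. COR47, a dehydrin that accumulates in cold and drought, had 632 with NPA and 292 with DMSO, a ratio of 2.17. A second dehydrin, HIRD11, had 1434 with NPA and 907 with DMSO, and COR15A, another cold-regulated gene, was left out by its DMSO signal with 288 with NPA and 49.98 with DMSO. LTI30 and COR15B were left out likewise, with 88.3 and 94.4 with NPA, against 25.7 and 52.6 with DMSO.

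The remaining named members are a peptide and a membrane protein. RALFL32 encodes a peptide of the RALF family, whose peptides alkalinise the apoplast and bind receptor kinases, and had 229 with NPA and 106 with DMSO, a ratio of 2.16. It was the only one of 5 family genes with a DMSO signal of 56 or more to lie above a ratio of 1: RALFL22, RALFL24, RALFL33 and RALFL34 had 78.4, 115, 150 and 609 with NPA, against 85.3, 195, 240 and 850 with DMSO. RALFL31 was left out by its DMSO signal, with 59.5 with NPA and 34.8 with DMSO. TET3, a tetraspanin of the plasma membrane, had 253 with NPA and 99.8 with DMSO, a ratio of 2.54. TET7 and TET8 had 164 and 291 with NPA, against 154 and 303 with DMSO, and TET10 was lower with 51.0 with NPA and 91.2 with DMSO. TET2 was left out by its DMSO signal, with 93.4 with NPA and 54.1 with DMSO.

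**Figure D4:**
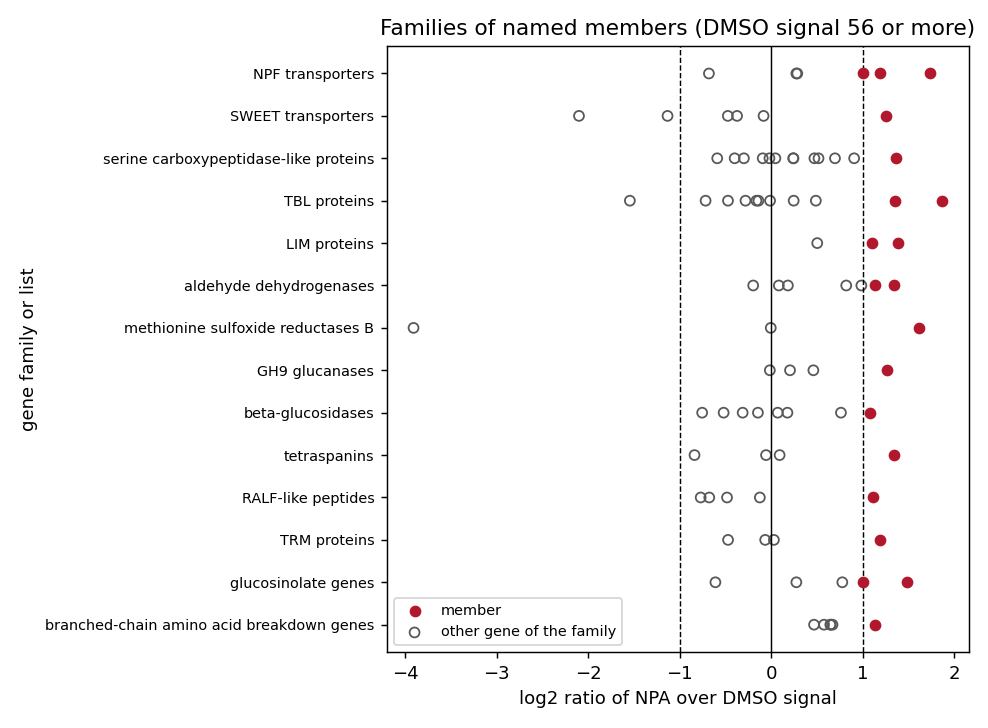
Log2 ratio of NPA over DMSO signal (horizontal) of genes with a DMSO signal of 56 or more in families and lists with at least 3 such genes, filled circles for members and open circles for other genes. Dashed lines mark a log2 ratio of 1 and of -1. The 6 genes listed for branched-chain amino acid breakdown all lie above 0, the member ALDH6B2 by the rule. That list was drawn up after the values were seen, so nothing is read from it. TBL proteins spread on both sides, and TBL45 lies at -1.54.

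The 97 members known only by locus tag had signals from 120 to 1134 with NPA and from 56.3 to 561 with DMSO, and ratios from 2.01 to 3.61. AT1G48750 had 1093 with NPA and 302 with DMSO, a ratio of 3.61, and AT1G21440 had 845 with NPA and 239 with DMSO, a ratio of 3.54. AT1G57590 had 250 with NPA and 70.9 with DMSO, AT5G22860 had 204 with NPA and 58.7 with DMSO, and AT5G44400 had 388 with NPA and 114 with DMSO. AT1G72230 (372 with NPA, 110 with DMSO), AT5G19875 (284 with NPA, 86.1 with DMSO) and AT2G22660 (248 with NPA, 75.5 with DMSO) complete the 10 largest ratios, at 3.37, 3.30 and 3.29. Of these 10, 8 have a locus tag only, as do 75.8% of all members.

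Of all members, 25 had an NPA signal of 500 or more and 5 of 1000 or more. Beside BCAT4 and GAMMA-VPE these 5 were AT1G48750, AT3G56360, with 1134 with NPA and 561 with DMSO, and AT1G56220, with 1062 with NPA and 464 with DMSO. The next 5 signals with NPA belonged to AT1G64370 (996 with NPA, 387 with DMSO), FDH, AT4G28240 (931 with NPA, 426 with DMSO), AT1G21440 and AT4G01610 (791 with NPA, 259 with DMSO).

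Members lay on all 5 nuclear chromosomes, by their locus tags. Chromosome 1 held 47 of them, 3.61% of its 1303 genes with a DMSO signal of 56 or more, and the other chromosomes held from 1.82% (chromosome 3) to 2.54% (chromosome 4). In the order of protein-coding genes of the TAIR10.1 annotation, used only for names and neighbours, 3 pairs of members were adjacent. AT1G64360 and AT1G64370 had ratios of 2.71 and 2.57, AT4G28240 and EXPB3 2.19 and 2.53, and AT4G30650 and AT4G30660 2.18 and 2.09. In all, 1097 adjacent pairs had both genes at a DMSO signal of 56 or more. Neighbours that were not members had a median ratio of 0.84 over 65 cases, beside 0.96 over all 5056 genes. Leaving members out removes neighbours with ratios from 2 up to 4.

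Other probe sets of the same gene were a second reading for 2 members, from the same RNA. For TBL40 it gave the lower ratio of 2.03, and for AT3G60420 it read 11.96 with NPA and 2.18 with DMSO, below the 40th percentile on both arrays. The probe sets of 127 members have the plain ending that marks 1 transcript, and that of AT4G38550 has the ending for probes shared by several transcripts.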

How the data were processed

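RNA of shoots grown with NPA or with DMSO was hybridised to 1 ATH1 array each. The authors deposited 1 signal intensity per probe set on a linear scale, made with MAS5 and GCOS per the submitters' processing notes, which give no version. The trimmed mean of each array was 100.0, so both had been scaled to a common mean. Of 22810 probe sets, 64 controls were left out, 13513 have 1 gene, 503 have several and 8730 have no gene name here. Gene identifiers matched 13436 of the 13513 to the TAIR10.1 gene table, locus tags 48 and symbols 24. The brightest probe set by the mean of both arrays stood for a gene. No floor or pseudocount was used, and no test between the arrays was run.

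The members, lists and families were chosen with earlier results of these data known. Both signals were given for the 10 largest ratios, the 10 highest NPA signals, members with a gene name, their families, and genes nearest to each bound. The code that selects the members was checked on simulated signals with known ratios. Alternatives were 3 other scalings, an added constant, other probe set rules and other bounds. Promoter motifs and proteins were not analysed here. Python 3.11.15, numpy 2.4.6, pandas 2.3.3, statsmodels 0.14.6 and matplotlib 3.10.9 were used.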

Additional observations from a re-analysis of the deposited data

Results flagged for a closer look

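Probe sets outside the gene readings carried the same kind of signal. Among 8730 probe sets with no gene name here, 4535 had a DMSO signal of 56 or more, and 177 of these, 3.9%, had a ratio of NPA over DMSO from 2 up to 4. Among 503 probe sets with several genes, 213 had such a DMSO signal and 5, 2.35%, had such a ratio. The members described above, 128 or 2.53% of 5056, are nuclear genes, each read from 1 probe set of its own. The 177 are probe sets, neither merged by gene nor limited to nuclear genes, so these counts are of unlike units.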

How the results depend on the processing

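No paired analysis was possible because each group has 1 array, and no array could be left out. Promoter motifs were not run. The count of 128 genes was 123 after median centring, 128 after quantile normalization, of which 116 were shared, and 139 after lowess centring. It was 83 with each array's 40th percentile signal added to both signals, 217 with a DMSO minimum of 28, 58 with the minimum of 56 doubled, 471 and 16 for ratios from 1.5 and from 3 up to 4, and 194, in a setting chosen after seeing the data, with the minimum of 56 on the mean of both arrays, against 125 in the opposite window. These other bounds change the count by construction. Under the 5 settings that recompute the ratio, 75 of the 128 members and 22 of the 31 named ones kept a ratio of 2 or more in all, and 0 came under 1. With the added constant ARPN, GTR2, MGL, PME61, RALFL32, TRM15, WES1, WLIM1 and ALDH6B2 came under 2, PME61 lowest at a log2 ratio of 0.82. GTR2 and ARPN also came under 2 after each of the 3 scalings, and PME61 after quantile normalization. With ratios from 3 up to 4, the cell wall, transporter, protein breakdown and amino acid groups held 1 gene each and the other 4 groups 0. With the doubled minimum, the transporter and cell wall groups held 3 genes each, the cytoskeleton group 1 and the peptide and membrane group 0.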
